A study of Mus musculus with 12 samples.

Results

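Parathyroid hormone-related protein (PTHrP, gene Pthlh) and its receptor (PTH1R, gene Pth1r) are 2 of the 55421 genes listed in a count table from mouse ventricle. Both were taken by gene symbol, and both were among the 17376 genes with enough counts to be tested. Pthlh was chosen by its CPM, the count scaled to the total of its library, which was higher in Ang II than in Con ventricles, so that difference is given as a description without a test. Pth1r was chosen as its receptor. PTHrP is a secreted peptide that acts mostly on nearby cells, and its amino-terminal part resembles parathyroid hormone. PTH1R is a class B G protein-coupled receptor that binds both hormones and signals through Gs to adenylyl cyclase and through Gq to phospholipase C. In blood vessels PTHrP is made by smooth muscle and relaxes it, and elsewhere it is best known for holding back the maturation of growth plate chondrocytes.

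The mice were wild type (WT) and formed 3 groups of 4. Ang II_FI mice received angiotensin II (Ang II), a hormone that raises blood pressure and enlarges the heart, from a minipump implanted under the skin on day 0. They also received Forsythoside I (FI), injected into the peritoneum on alternate days at 50 mg/kg, starting the day before the pump and ending on day 14. Ang II mice had the same pump with the injection vehicle, and Con mice had saline with vehicle. No group received FI with saline, so FI was measured only on top of Ang II. The labels give no Ang II dose, strain, age or sex.

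Each library held 68874852 to 80624227 counts, of which 29.1% to 38.8% came from mitochondrial genes. Pthlh was low, and 3 counts correspond to 0.0372 to 0.0436 CPM in these libraries. The 9 cardiomyocyte markers summed to 39780 to 50190 CPM in Ang II_FI (43130 to 50190 CPM without Ang II_FI_3), 36920 to 42050 CPM in Ang II and 41720 to 53170 CPM in Con, and none of these markers was at 0 in any group. The library Ang II_FI_3 stood apart: its 15 hepatocyte markers summed to 24930 CPM, against 5.28 to 7.32 CPM in the other Ang II_FI libraries, 2.35 to 46.5 CPM in Ang II and 3.16 to 8.98 CPM in Con. Levels and fold changes of Pthlh and Pth1r are therefore given with and without that library. For other genes, group means include it, and the printed fold changes and marker sums that use Ang II_FI have their value without it beside them.

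On GRCm38, Pthlh (ENSMUSG00000048776) is annotated on the minus strand of chromosome 6, from 147252101 to 147264183. Its exons cover 1619 bases and share none with another gene. Pth1r (ENSMUSG00000032492) is annotated on the minus strand of chromosome 9, from 110722085 to 110747145, with 2925 exon bases. Of these, 95 lie opposite exons of Myl3, the ventricular myosin light chain. The labels do not say whether counting used strand, and without it reads over those bases cannot be told apart between Pth1r and Myl3. Myl3 is very abundant: it held 296752 to 416069 counts per library, against 240 to 467 for Pth1r.

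Promoter sequences are shown for the ligand gene, which was called between groups, and for its receptor, with motifs of factors that act after TGF-beta, cAMP and hedgehog signals. They come from RefSeq on GRCm38.p6 and end at the annotated start, or at the nearest exon base that GENCODE places upstream of it. Capitals mark matches to 3 motifs, searched on both strands. The GC box bound by Sp1 was spelled GGGCGG. The core of the site bound by CREB was spelled TGACG. The box bound by SMAD proteins was spelled CAGAC. No matches of different motifs overlapped in these stretches. The Pthlh stretch is chr6:147264184-147264263 on the minus strand. The Pth1r stretches are chr9:110747146-110747395, chr9:110743687-110743936 and chr9:110742720-110742860, all on the minus strand and numbered from the most upstream start.
Pthlh: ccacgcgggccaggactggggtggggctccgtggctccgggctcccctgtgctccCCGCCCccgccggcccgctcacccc
Pth1r start 1: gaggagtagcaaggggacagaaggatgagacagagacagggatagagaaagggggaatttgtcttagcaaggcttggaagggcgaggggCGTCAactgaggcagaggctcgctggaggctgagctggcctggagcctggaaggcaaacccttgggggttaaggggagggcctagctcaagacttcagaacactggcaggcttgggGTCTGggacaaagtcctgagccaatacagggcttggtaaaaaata
Pth1r start 2: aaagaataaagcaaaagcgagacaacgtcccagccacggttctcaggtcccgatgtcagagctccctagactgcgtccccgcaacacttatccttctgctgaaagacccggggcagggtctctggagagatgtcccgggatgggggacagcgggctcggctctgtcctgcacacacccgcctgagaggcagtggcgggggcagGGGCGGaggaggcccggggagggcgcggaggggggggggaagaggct
Pth1r start 3: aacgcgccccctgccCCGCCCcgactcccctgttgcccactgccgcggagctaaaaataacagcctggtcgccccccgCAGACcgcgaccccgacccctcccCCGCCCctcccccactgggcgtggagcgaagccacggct

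Over the full 250 bases before its RefSeq start, Pthlh was 75.2% G or C, more than 96.1% of 32851 promoters of the same length, whose median was 52.4%. That window held 4 GC boxes, beginning 195, 45, 26 and 8 bases upstream, of which the first lies in the printed stretch. It held no match to the CREB core or the SMAD box. It also held none to the TATA box, spelled TATAAA, and none to the core bound by GLI factors, spelled CCACCCA. On either strand, a GC box occurred in 32.7% of promoters, a CREB core in 17.8%, a SMAD box in 42.2%, a TATA box in 12.4% and a GLI core in 8.11%. The Pth1r windows differed from each other. Start 1 was 56.0% G or C and held 1 CREB core and 1 SMAD box, start 2 was 65.6% with 1 GC box, and start 3 was 70.4% with 4 GC boxes and 1 SMAD box. Counts are given per gene, so the use of the 3 Pth1r starts was not measured. A match is a description of letters and not a bound site.

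Pthlh was more abundant in all 8 libraries from mice given Ang II, with or without FI, than in any Con library. Its counts were 100, 88, 52 and 107 in Ang II_FI_1 to Ang II_FI_4, 96, 161, 92 and 116 in Ang II_1 to Ang II_4, and 16, 41, 20 and 16 in Con_1 to Con_4. As CPM these were 1.43, 1.25, 0.714 and 1.46 in Ang II_FI, 1.38, 2.34, 1.30 and 1.44 in Ang II, and 0.229, 0.591, 0.286 and 0.226 in Con. Ang II_FI_3 was the lowest Ang II_FI library, Ang II_2 the highest of all and Con_2 the highest of Con. The means were 1.21 ± 0.345 CPM in Ang II_FI, 1.61 ± 0.486 CPM in Ang II and 0.333 ± 0.174 CPM in Con (SD, n = 4 each). Without Ang II_FI_3 the Ang II_FI mean was 1.38 ± 0.116 CPM (SD, n = 3). In bulk tissue, more cells that make an RNA and more RNA per cell cannot be told apart.

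**Figure D1:**
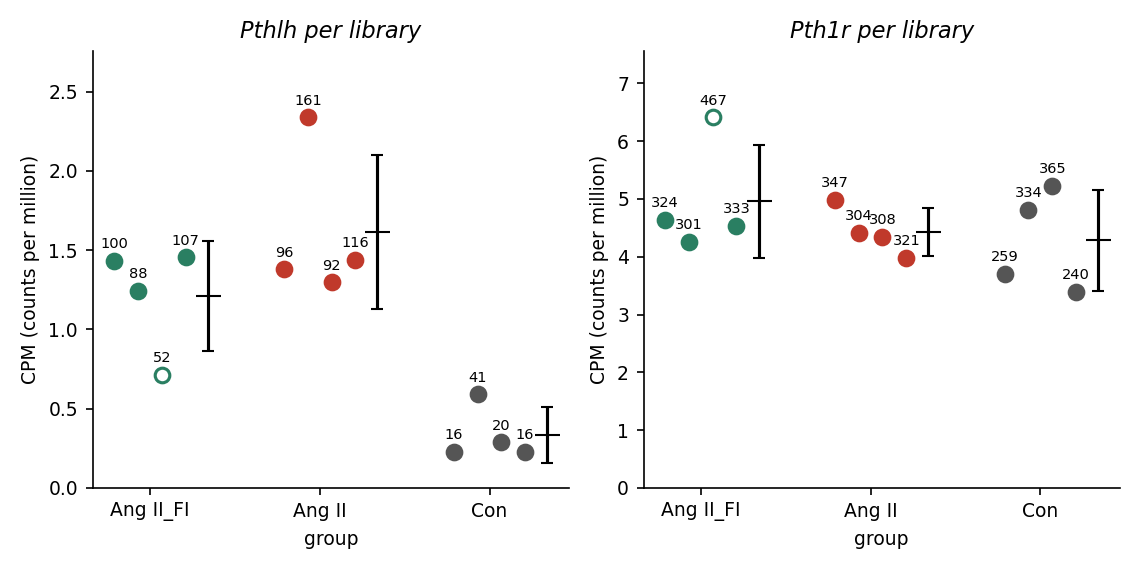
Pthlh and Pth1r in every library, as CPM on a linear axis, with the raw count above each point and the mean ± SD of each group as a bar (n = 4). The open circle is Ang II_FI_3. Pthlh in Ang II_FI and in Ang II lies above all Con libraries, and Pth1r overlaps between all 3 groups.

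At these depths, counting error alone was broad for Con. The 95% exact Poisson interval ran from 0.533 to 0.936 CPM in Ang II_FI_3, from 1.99 to 2.73 CPM in Ang II_2, and from 0.424 to 0.802 CPM in Con_2. The intervals of Ang II_FI_3 and Con_2 overlapped, although their values did not meet. These intervals cover counting error only and take each count as a separate event. Pthlh was a multiple of 4 in 9 of 12 libraries and Pth1r in 4 of 12, while 33.9% to 36.6% of all values from 1 to 40 were such multiples. Every Pth1r count and most Pthlh counts were above 40, so that share is from a lower range of counts than theirs. The origin of these multiples was not tested. If counts came in blocks, the intervals above would be too narrow.

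Pthlh was higher in Ang II_FI than in Con, the comparison of mice given Ang II and FI with mice given saline and vehicle. The log2 fold change was 1.92 ± 0.38 (SE), with an adjusted p of 0.0385 by edgeR's quasi-likelihood test with Benjamini-Hochberg adjustment, and the ratio of mean CPM was 3.64. The lowest Ang II_FI library stood 1.21-fold above the highest Con library. The exact two-sided permutation test on log2(CPM + 0.05) gave p = 0.0286, the smallest that 4 against 4 libraries can give, and 0.143 after adjustment over the 5 such tests of both genes. Without Ang II_FI_3 the log2 fold change was 2.12 ± 0.36 with an edgeR adjusted p of 0.0170, and the exact permutation p was 0.0571, the smallest that 3 against 4 can give. For background, 0.719% of tested genes were called higher in Ang II_FI than in Con (0.932% without Ang II_FI_3), and 3.52% had Ang II_FI libraries all above Con (4.72% without it). The call was not stable: it was lost in 10 of 12 fits that each left out 1 library, where the edgeR adjusted p reached 0.117, and it was also lost with limma-voom (0.0864) and with the libraries of the 2 groups alone (0.105). It was kept without Con_2 and without Ang II_FI_3. This comparison shares its Con libraries with Ang II against Con, by which the gene was chosen. A choice for low Con values favours a value above 0 here. These p-values are therefore not independent of the choice.

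In Ang II against Con, for which Pthlh was chosen, the log2 fold change was 2.25 ± 0.38 and the ratio of mean CPM was 4.84. The lowest Ang II library was 2.20-fold above the highest Con library. Of all tested genes, 1.57% were called higher in this comparison and 7.74% had Ang II libraries all above Con, and nothing is read from Pthlh's place among them.

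**Figure D2:**
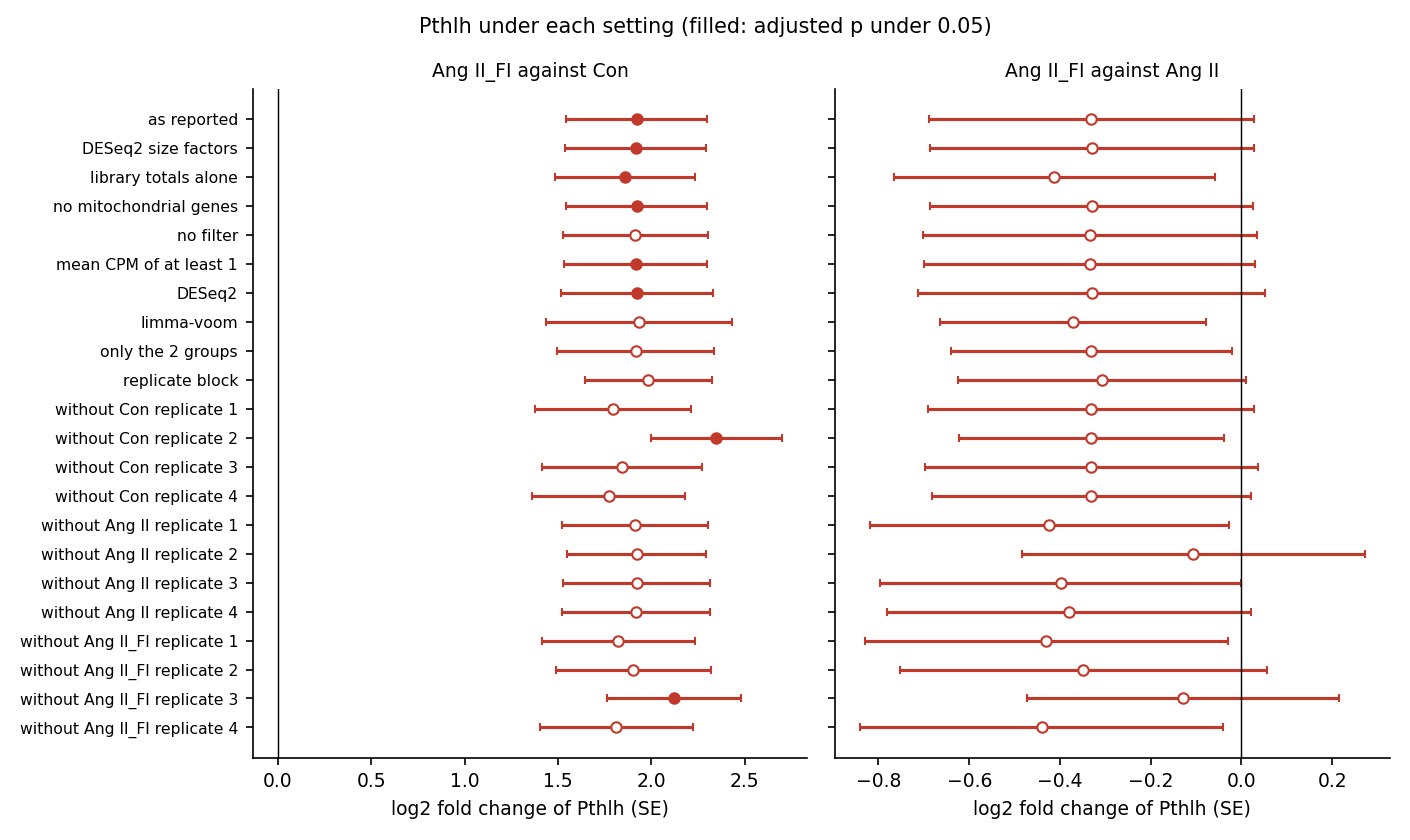
Log2 fold change of Pthlh (x axis, bars are SE) as reported and under each alternative setting (rows), for Ang II_FI against Con and for Ang II_FI against Ang II. Filled points have an adjusted p under 0.05. In Ang II_FI against Con the fold change stayed between 1.77 and 2.35 over the fits without 1 library, while the adjusted p lay on both sides of the threshold.

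No difference in Pthlh was detectable between Ang II mice given FI and those given vehicle. Ang II_FI against Ang II gave a log2 fold change of -0.33 ± 0.36, an edgeR adjusted p of 0.799 and an exact permutation p of 0.314 (0.536 adjusted over 5), with overlapping groups. Without Ang II_FI_3 it was -0.13 ± 0.34, with an edgeR adjusted p of 0.951 and an exact permutation p of 0.629. The ratio of mean CPM was 0.751 with all libraries and 0.854 without that one. This comparison shares its Ang II libraries with Ang II against Con, by which the gene was chosen. Choosing a gene for high Ang II values favours a value below 0 here, so nothing is read from its direction. Of all tested genes, 0 (0%) were called between these groups by edgeR (0.00565% without Ang II_FI_3), although 9.95% had an unadjusted p under 0.05, DESeq2 called 42 genes and limma-voom called 0. In the order of Pthlh levels, Ang II was highest, Ang II_FI next and Con lowest, and the neighbours Ang II and Ang II_FI did not differ beyond their spread.

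Pth1r, the receptor, varied little. Its counts were 324, 301, 467 and 333 in Ang II_FI, 347, 304, 308 and 321 in Ang II, and 259, 334, 365 and 240 in Con, which correspond to means of 4.96 ± 0.980, 4.43 ± 0.418 and 4.29 ± 0.874 CPM (SD, n = 4 each). The highest value of all, 6.41 CPM, was Ang II_FI_3, and without it the Ang II_FI mean was 4.48 ± 0.198 CPM (SD, n = 3). The log2 fold change was 0.25 ± 0.16 in Ang II_FI against Con (edgeR adjusted p = 0.457), 0.14 ± 0.16 without Ang II_FI_3 (0.718). It was 0.03 ± 0.16 in Ang II against Con (0.960), and 0.22 ± 0.16 in Ang II_FI against Ang II (0.672), or 0.11 ± 0.16 without Ang II_FI_3 (0.889). The groups overlapped in every comparison. No neighbouring pair in the order of Pth1r levels differed beyond its spread. The exact permutation p was 0.343 in Ang II_FI against Con (0.686 without Ang II_FI_3), 0.714 in Ang II against Con and 0.429 in Ang II_FI against Ang II (0.857 without it).

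Per kilobase of exon, receptor RNA was more abundant than ligand RNA in every group. The Pth1r counts used here are uncertain, since 95 of its exon bases lie opposite Myl3 exons and the strand setting is not given. Pthlh averaged 0.749 ± 0.213 CPM per kb in Ang II_FI (0.851 ± 0.0715 without Ang II_FI_3, n = 3), 0.997 ± 0.300 in Ang II and 0.206 ± 0.108 in Con (SD, n = 4 each). The ratio of Pthlh to Pth1r per kb was 0.467 ± 0.178 in Ang II_FI (0.555 ± 0.0262 without Ang II_FI_3, which held 0.201), 0.662 ± 0.207 in Ang II and 0.138 ± 0.0564 in Con. The Pthlh level exceeded that of 34.3% of tested genes in Ang II_FI (38.5% without Ang II_FI_3), 39.3% in Ang II and 17.2% in Con, and the Pth1r level exceeded 49.8% in Ang II_FI, with or without that library, 47.4% in Ang II and 47.3% in Con. Across groups the ligand's place in the ranking thus spanned 17.2% to 39.3% and the receptor's 47.3% to 49.8%.

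The other hormones and receptors of the family were nearly absent. Pth and Pth2 (parathyroid hormone and tuberoinfundibular peptide) had 0 counts in all 12 libraries, and Pth2r, the second receptor, had 4 counts in Ang II_FI_3 and 0 elsewhere. At the depths given, 0 counts in a library allow up to 3 counts. The receptor activity-modifying proteins (RAMPs) are single-pass partners of class B receptors. Ramp1 averaged 6.09 ± 1.23 CPM in Ang II_FI, 7.57 ± 1.37 CPM in Ang II and 8.77 ± 1.14 CPM in Con. Its Ang II_FI libraries all lay below Con, with a log2 fold change of -0.49 ± 0.17 and an edgeR adjusted p of 0.179 (-0.58 and 0.136 without Ang II_FI_3), where 6.06% of tested genes lay wholly below Con. Ramp3 averaged 5.75 ± 1.59 CPM in Ang II_FI, 7.61 ± 1.36 CPM in Ang II and 4.13 ± 1.25 CPM in Con. Its Ang II libraries all lay above Con (log2 fold change 0.87 ± 0.25, edgeR adjusted p = 0.0964, DESeq2 adjusted p = 0.0165), where 7.74% of tested genes lay wholly above Con. Ramp2 averaged 39.0 ± 4.41, 38.3 ± 3.63 and 30.6 ± 7.67 CPM in Ang II_FI, Ang II and Con, with overlapping groups throughout. Ramp2 shares 1103 exon bases with Vps25 on the same strand and Ramp3 shares 101 with Gm11978 on the opposite strand, so their counts are uncertain.

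Of 86 other genes of the pathway, 77 were tested. In Ang II_FI against Con, 1 was called higher and 0 lower (1.30%, against 0.978% of all tested genes, or 1.24% without Ang II_FI_3). In Ang II against Con, 2 were called higher and 0 lower (2.60%, against 2.23%). In Ang II_FI against Ang II, 0 were called. Their median log2 fold change was -0.03 in Ang II_FI against Con, 0.01 in Ang II against Con and -0.08 in Ang II_FI against Ang II, beside 0.02, 0.00 and 0.02 over all tested genes. Without Ang II_FI_3 these medians were -0.09, 0.00 and -0.11. Without Ang II_FI_3, Ang II against Con gave 4 higher and 1 lower (6.49%, against 3.86%), adding Adcy4 and Arrb2 among the higher and Ezr as the lower gene. Shh and Tnfsf11 had no count in any library.

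**Figure D3:**
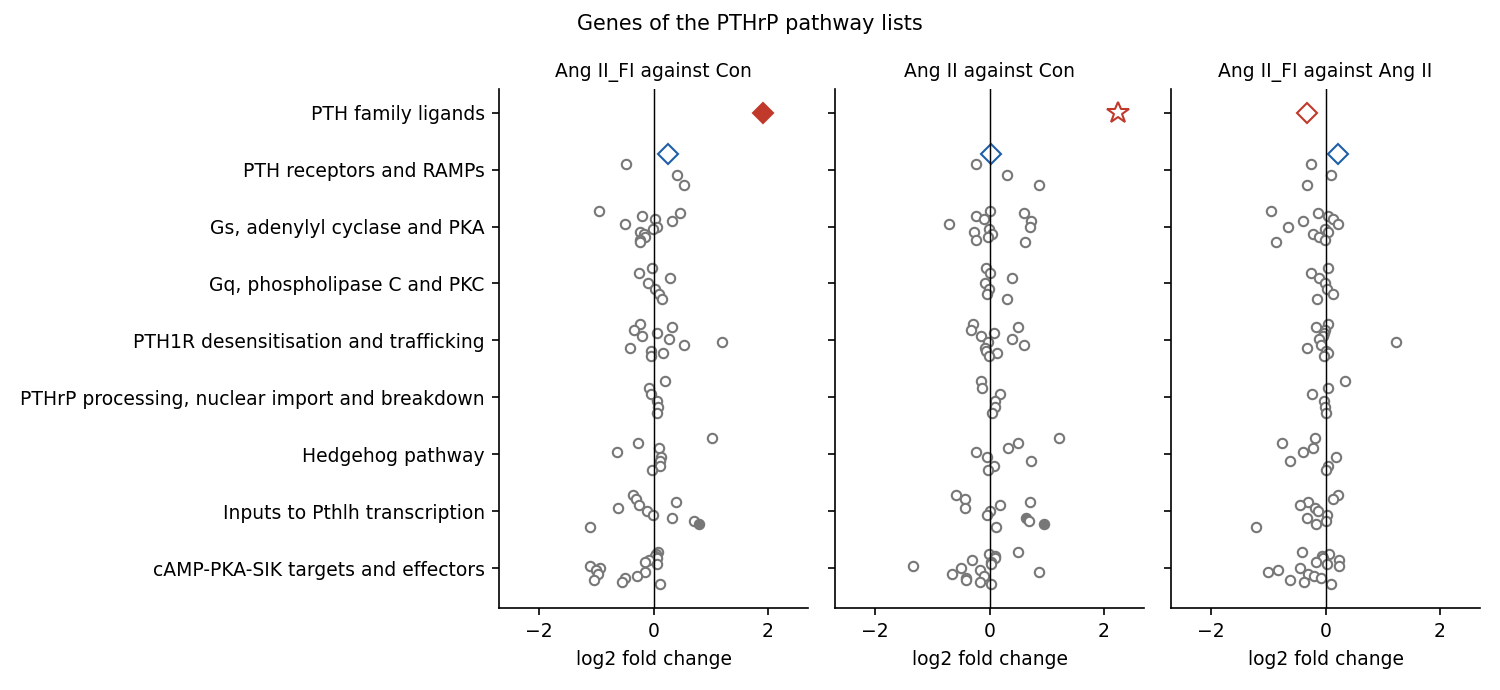
Log2 fold change (x axis) of each tested gene of the pathway lists (rows) in the 3 comparisons. Filled symbols had an adjusted p under 0.05, red symbols are Pthlh, blue diamonds are Pth1r, and the open star is Pthlh in Ang II against Con, which was not tested. The filled grey points are Tgfb3 in Ang II_FI against Con, and Tgfb3 and Tgfb1 in Ang II against Con.

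Of 11 tested genes listed as inputs to Pthlh transcription, 1 was called higher in Ang II_FI against Con (Tgfb3) and 2 in Ang II against Con (Tgfb3 and Tgfb1), both secreted growth factors, and 0 were called lower. The list's median log2 fold change was -0.12 in Ang II_FI against Con and 0.11 in Ang II against Con, and the shares of all tested genes called were the 0.978% and 2.23% given above. Tgfb3 measured 17.04, 14.7, 13.4 and 15.5 CPM in Ang II_FI, 19.4, 16.8, 16.3 and 18.9 CPM in Ang II, and 8.29, 11.4, 9.46 and 7.06 CPM in Con. All Ang II_FI and Ang II libraries lay above all Con libraries. Of all tested genes, 3.52% had Ang II_FI wholly above Con and 7.74% had Ang II wholly above Con. The log2 fold change was 0.79 ± 0.14 in Ang II_FI against Con (edgeR adjusted p = 0.0291; 0.87 and 0.0147 without Ang II_FI_3) and 0.96 ± 0.14 in Ang II against Con (0.00926). The second held in all 12 fits that left out 1 library, and the first was lost in 7 of 12. Tgfb1 averaged 14.8 ± 2.40 CPM in Ang II_FI, 19.3 ± 1.76 CPM in Ang II and 12.2 ± 1.89 CPM in Con. Its Ang II libraries lay above both other groups, with a log2 fold change of 0.64 ± 0.14 in Ang II against Con (edgeR adjusted p = 0.0397, lost in 8 of 12 such fits) and -0.32 ± 0.14 in Ang II_FI against Ang II (0.498; -0.29 and 0.670 without Ang II_FI_3). Neither Tgfb3 nor Tgfb1 passed in Ang II_FI against Ang II. Ang II_FI libraries lay wholly below Ang II for 5.12% of all tested genes, as they did for Tgfb1. Tgfb2, which did not pass in any comparison, averaged 6.98 ± 0.545 CPM in Ang II_FI, 7.18 ± 1.26 CPM in Ang II and 4.47 ± 1.60 CPM in Con. Other inputs had values below 0 that did not pass: Smad3, a TGF-beta signal transducer, had a log2 fold change of -0.62 in Ang II_FI against Con (edgeR adjusted p = 0.0583; -0.65 and 0.0637 without Ang II_FI_3). In Ang II against Con, Agtr1a, the Ang II receptor, had -0.58 (edgeR adjusted p = 0.129) and Edn1, endothelin 1, had -0.43 (0.448).

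Downstream of the receptor, no gene of the Gs, Gq, desensitisation, processing, hedgehog or cAMP target lists passed edgeR's test in any comparison with all libraries. DESeq2 did call named genes of these lists: in Ang II against Con Adcy4 (adjusted p = 0.00788), Grk5 (0.0153) and Crem (0.0164), and in Ang II_FI against Con Adcy3 (0.0182). Gnas, the Gs alpha subunit, averaged 468 ± 42.6 CPM in Ang II_FI, 490 ± 28.4 CPM in Ang II and 486 ± 48.1 CPM in Con. Adcy4, an adenylyl cyclase, averaged 15.0 ± 2.15, 17.2 ± 2.36 and 11.3 ± 2.25 CPM in Ang II_FI, Ang II and Con, with a log2 fold change of 0.60 ± 0.15 in Ang II against Con (edgeR adjusted p = 0.0598, or 0.0418 without Ang II_FI_3). Adcy3, another cyclase, averaged 1.36 ± 0.367 CPM in Ang II_FI, 2.80 ± 0.741 CPM in Ang II and 2.74 ± 0.768 CPM in Con, and its Ang II_FI libraries all lay below Ang II (log2 fold change -0.96 ± 0.26, edgeR adjusted p = 0.411; -0.81 and 0.542 without Ang II_FI_3). Crem, which encodes cAMP-inducible regulators, averaged 6.96 ± 1.09 CPM in Ang II_FI, 9.69 ± 0.368 CPM in Ang II and 6.79 ± 0.815 CPM in Con. Its Ang II libraries lay above both other groups, at 0.49 ± 0.13 against Con (edgeR adjusted p = 0.0729), while Ang II_FI against Ang II was -0.41 ± 0.13 (0.411; -0.46 and 0.542 without Ang II_FI_3). Of all tested genes, 5.12% had Ang II_FI libraries wholly below Ang II. Grk5, a kinase that turns off receptors, averaged 26.7 ± 2.97 CPM in Ang II_FI, 30.4 ± 2.24 CPM in Ang II and 23.0 ± 2.78 CPM in Con, with 0.39 ± 0.10 in Ang II against Con (edgeR adjusted p = 0.0616, or 0.0465 when genes averaging under 1 CPM were left out). Snx27, which recycles PTH1R, averaged 17.4 ± 3.91 CPM in Ang II_FI, 22.7 ± 1.55 CPM in Ang II and 23.8 ± 2.11 CPM in Con.

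The remaining named genes act in Gq signalling and in the handling of PTHrP itself. Prkcd, a protein kinase C, averaged 11.2 ± 1.11, 13.0 ± 2.08 and 10.4 ± 2.07 CPM in Ang II_FI, Ang II and Con, and Gnaq, the Gq alpha subunit, 14.8 ± 0.710, 18.6 ± 2.74 and 18.2 ± 2.88 CPM. Furin, a protease that cleaves proPTHrP, averaged 47.2 ± 15.1 CPM in Ang II_FI, 38.6 ± 2.09 CPM in Ang II and 42.0 ± 3.98 CPM in Con. Kpnb1, the importin that carries PTHrP into the nucleus, averaged 90.1 ± 9.12, 91.3 ± 1.51 and 98.7 ± 8.88 CPM. None of these passed edgeR's test in any comparison. The log2 fold change of Furin in Ang II_FI against Con was 0.20, and -0.0021 without Ang II_FI_3. In Ang II_FI against Ang II it was 0.34, and 0.14 without that library.

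Activated fibroblast and macrophage marker sums were, like Pthlh, higher in every library given Ang II than in any Con library, while fibroblast sums overlapped Con. Of the libraries given Ang II, Ang II_FI_3 had the highest activated fibroblast sum (414 CPM) and the lowest Pthlh (0.714 CPM). That sum includes Fn1, which hepatocytes also make, and this library stood apart by its hepatocyte markers. Likeness to Pthlh therefore cannot be read from its sum. The part of these cells in the Pthlh difference was not tested. The 7 activated fibroblast markers summed to 134 to 414 CPM in Ang II_FI (134 to 171 CPM without Ang II_FI_3), 222 to 254 CPM in Ang II and 66.3 to 101 CPM in Con. Of these, 4 were called higher in Ang II_FI against Con, with or without Ang II_FI_3, and 4 in Ang II against Con (5 without it). Over all tested genes, 0.719% were called higher in Ang II_FI against Con and 1.57% in Ang II against Con. Without Ang II_FI_3 these shares were 0.932% and 2.49%. The 8 macrophage markers summed to 268 to 309 CPM in Ang II_FI (284 to 309 CPM without Ang II_FI_3), 300 to 339 CPM in Ang II and 183 to 228 CPM in Con, with 3 called higher in Ang II_FI against Con and 5 in Ang II against Con. The 8 fibroblast markers summed to 2010 to 2104 CPM in Ang II_FI (2079 to 2104 CPM without Ang II_FI_3), 2145 to 2415 CPM in Ang II and 1621 to 2185 CPM in Con, with 1 called higher in Ang II_FI against Con and 3 in Ang II against Con (4 without Ang II_FI_3). None of these 3 lists had a marker at 0 in a whole group.

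Vascular smooth muscle, epithelial and growth plate cells are known sources of PTHrP, and their markers are given for that reason. The 7 vascular smooth muscle markers summed to 190 to 270 CPM in Ang II_FI, 244 to 259 CPM in Ang II and 270 to 328 CPM in Con. Without Ang II_FI_3 the Ang II_FI range was 190 to 227 CPM, wholly below both other groups. Among single tested genes without that library, 11% had Ang II_FI wholly below Con and 9.89% wholly below Ang II. Taken singly, 5 of the 7 lay above 0 and 2 below in Ang II against Con, with a median log2 fold change of 0.33. In Ang II_FI against Con, 2 lay above 0 and 5 below, with a median of -0.12 (-0.19 without Ang II_FI_3). Of these markers, none was called in Ang II_FI against Con, and 1 was called higher and 1 lower in Ang II against Con. In that comparison 1.57% of all tested genes were called higher and 0.662% lower. The 8 endothelial markers summed to 549 to 657 CPM in Ang II_FI (559 to 657 CPM without Ang II_FI_3), 696 to 945 CPM in Ang II and 504 to 809 CPM in Con, with none called. Their Ang II_FI sums lay wholly below Ang II. All 8 lay below 0 in Ang II_FI against Ang II, with a median log2 fold change of -0.33 (-0.29 without Ang II_FI_3). Among single tested genes, 5.12% had Ang II_FI wholly below Ang II with all libraries. The 6 pericyte markers summed to 770 to 958 CPM in Ang II_FI (807 to 958 CPM without Ang II_FI_3), 956 to 1123 CPM in Ang II and 872 to 1012 CPM in Con. None of them was called with all libraries, and without Ang II_FI_3 Abcc9 was called lower in Ang II against Con (-0.41, edgeR adjusted p = 0.0486). In that fit 1.37% of all tested genes were called lower. The 8 epithelial or keratinocyte markers summed to 2.21 to 10.5 CPM in Ang II_FI (2.21 to 2.95 CPM without Ang II_FI_3), 2.06 to 3.08 CPM in Ang II and 1.70 to 3.40 CPM in Con, and Krt14 and Krt15 were at 0 in all. The 7 osteoblast or chondrocyte markers summed to 0.580 to 0.912 CPM in Ang II_FI (the same without Ang II_FI_3), 0.949 to 1.68 CPM in Ang II and 0.573 to 0.787 CPM in Con, with Sp7 and Col2a1 at 0 in Ang II_FI and Ang II, and Bglap and Ibsp at 0 in Ang II_FI and Con. These low sums were higher in Ang II than in both other groups. Only 2 of these markers were tested. Both lay above 0 in Ang II against Con, with a median log2 fold change of 1.88, and 0 were called.

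**Figure D4:**
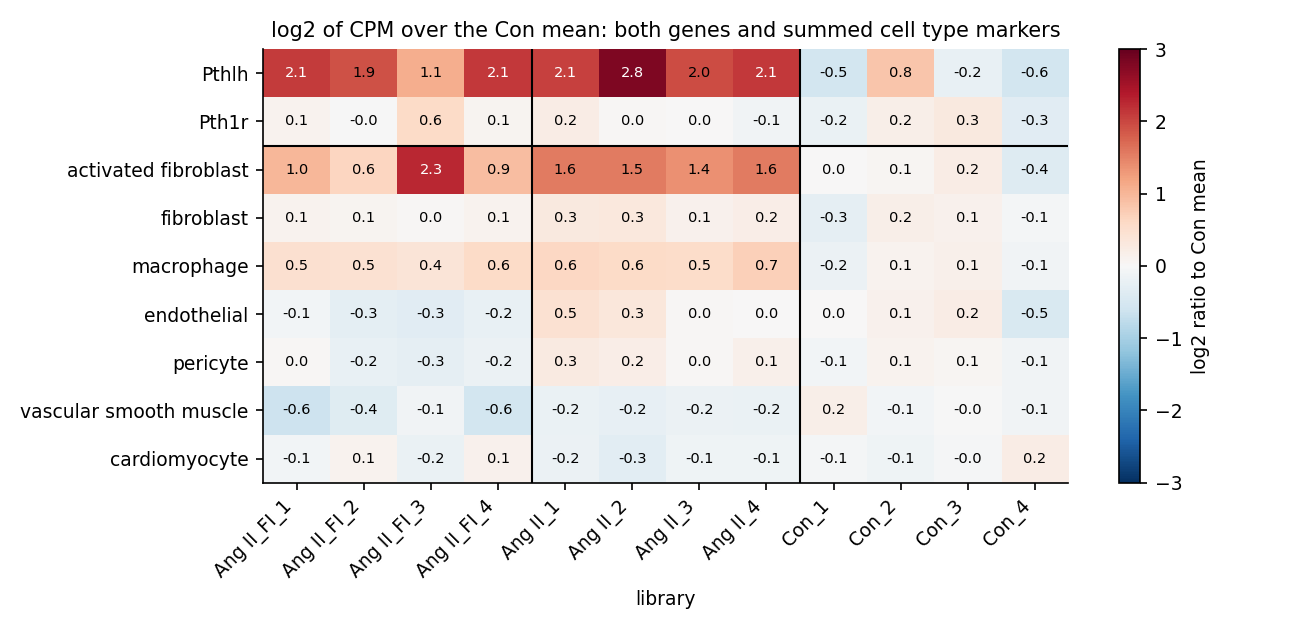
Log2 ratio of CPM to the Con mean in each library (columns, Ang II_FI, then Ang II, then Con) for Pthlh, Pth1r and the summed markers of 7 cell types (rows), with red above and blue below the Con mean and the value in each cell. The activated fibroblast, macrophage and fibroblast sums are above the Con mean in all 8 libraries given Ang II, as Pthlh is, the fibroblast sum by 0.04 to 0.31. The vascular smooth muscle sum is below it in the same 8 libraries, although 5 of its 7 markers had log2 fold changes above 0 in Ang II against Con. Over those 8 libraries Pth1r and the remaining sums lie on both sides of it.

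The genes whose pattern over the 12 libraries was most like that of Pthlh were found by the root mean square difference between log2(CPM + 0.05) profiles, each centred on its own mean. Among 14421 candidates of at least 0.5 CPM, the 5 nearest were Cilp (0.445), Postn (0.455), Mfap5 (0.463), Ptgs2 (0.485) and Col8a1 (0.487), against a median of 1.07. Cilp, Postn, Mfap5 and Col8a1 encode extracellular matrix proteins and Ptgs2 encodes cyclooxygenase 2. Over the 11 libraries without Ang II_FI_3 the values were 0.450, 0.475, 0.473, 0.506 and 0.493, and Ptgs2 fell to rank 7 while the other 4 stayed among the nearest 5. Cilp averaged 23.2 CPM in Ang II_FI, 35.8 CPM in Ang II and 9.38 CPM in Con, and Ptgs2 averaged 1.38, 2.28 and 0.784 CPM. Pth1r deviated from its own mean by only 0.226, and its nearest genes were Zc3h10 (0.0769), Mvb12a (0.0973), Rab8a (0.108), Cnpy3 (0.112) and St3gal4 (0.114), against a median of 0.320. Without Ang II_FI_3 those genes had 0.0798, 0.0934, 0.102, 0.111 and 0.112 and ranked 2, 3, 6, 10 and 11. These values are descriptions over libraries that share their groups.

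**Figure D5:**
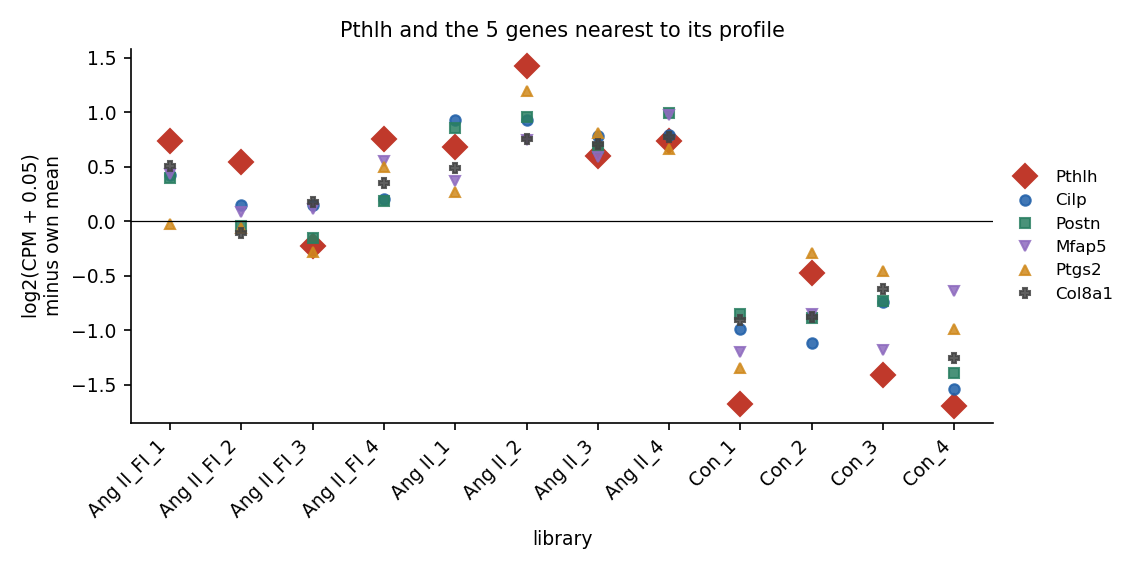
Centred log2(CPM + 0.05) of Pthlh and of the 5 genes nearest to it in each of the 12 libraries, in the order Ang II_FI, Ang II and Con. All 6 genes have their lowest values among the Con libraries.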

How the data were processed

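Ventricular RNA from 12 mice was sequenced with a SMARTER mRNA kit, per the labels' protocols, which name both TRIzol and RNeasy for extraction. The authors deposited 1 table of raw counts per gene. GRCm38, HISAT, DESeq 1.8.3 and featureCounts 1.5.0-p3 are named in the submitters' processing notes. Strand setting, multi-mapping reads and gene annotation: not given in the sources used here. The table held 13 unnamed empty columns, and 27 symbols were repaired from gene IDs. GENCODE M21 matched 55240 IDs (99.67%) and gave gene models.

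edgeR 4.0.16 (R 4.3.3) was fitted to the counts of all 12 libraries with 3 group means, TMM scaling and filterByExpr, leaving 17376 genes, and p-values were adjusted by Benjamini-Hochberg over them. The SE of each edgeR log2 fold change was derived from its test, as the absolute fold change over the square root of the quasi-likelihood F statistic. DESeq2 1.42.0 and limma 3.58.1 were alternatives. Levels are CPM over all counts, and exact two-sided permutation tests used log2(CPM + 0.05). The fit was tested on simulated data. The labels give 4 mice per group. No batch is given.

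Genes named are the 2 members, their ligand and receptor relatives, list genes past the adjusted threshold of 0.05, and, for lists with none, those with the smallest p in Ang II against Con and in Ang II_FI against Ang II; 1 gene so chosen is not reported here, and Tgfb2, Smad3, Agtr1a, Edn1, Gnas, Arrb2, Ezr and Abcc9 were named after their values were seen. Members, lists and markers were chosen with earlier results of these data known.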

Additional observations from a re-analysis of the deposited data

Results flagged for a closer look

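Among 48 groups of 4 libraries (16 named genes in 3 groups), 5 had a highest or lowest library farther from the others than Dixon's 95% critical value allows; chance gives about 2.4. For Pthlh, Ang II_2 held 2.34 CPM, against 1.30 to 1.44 CPM in the other Ang II libraries. Pthlh in Con_2 held 0.591 CPM, against 0.226 to 0.286 CPM in the other Con libraries. Adcy4 in Ang II_2 held 20.7 CPM, against 15.7 to 16.5 CPM in the other Ang II libraries. Prkcd in Con_3 held 13.5 CPM, against 9.10 to 9.66 CPM in the other Con libraries. Snx27 in Ang II_FI_4 held 11.5 CPM, the lowest, against 19.1 to 19.7 CPM in the other Ang II_FI libraries.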

How the results depend on the processing

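Pthlh in Ang II_FI against Con kept its direction under all settings tried but lost its call without the low-count filter (1.91, edgeR adjusted p = 0.0759), with limma-voom (1.93, 0.0864), with only the 2 groups (1.92, 0.105) and in 10 of 12 fits without 1 library, where it ran from 1.77 to 2.35; DESeq2 gave an adjusted p of 2.77e-04. The cause was not tested. Replicate numbers did not pair the samples: same-numbered deviations correlated at -0.0572 to 0.108 over 12 pairs, 1 over 0.1, and a library correlated best with its own number in 8 of 24 matches. With the replicate block Pthlh was 1.98 (edgeR adjusted p = 0.0560), Tgfb3 in Ang II_FI against Con (0.0772) and Tgfb1 in Ang II against Con (0.0966) also missed the threshold, and the genes called were 61 in Ang II_FI against Con and 124 in Ang II against Con. Pth1r in Ang II against Con ran from -0.0679 to 0.12 without 1 library. Of 170 genes called in Ang II_FI against Con, the count was 64 with no filter, 847 with DESeq2, 48 with only the 2 groups and 41 to 220 without 1 library. Of 388 in Ang II against Con, it was 190, 1099 with DESeq2 and 90 to 683 without 1 library. In Ang II_FI against Ang II it was 0, with DESeq2 42 and 0 to 1 without 1 library. Over the alternatives for the named genes other than Pthlh and Pth1r, 851 values kept direction and side of the threshold, 20 lost and 9 gained a call, and 12 changed sign. Those were Adcy3 in Ang II against Con (-0.0289 with the block, -0.13 to 0.18 without 1 library), Gnaq there (-0.0997 to 0.0575), Kpnb1 in Ang II_FI against Ang II (-0.0192 on library totals alone, -0.0137 to 0.0856), Furin in Ang II_FI against Con (-0.0021 to 0.30) and Ramp2 in Ang II_FI against Ang II (-0.00044 to 0.15). Pthlh is low, so depth limits its Con values most.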

Other observations

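The nearest tested genes around each member, chosen after their values were seen, did not pass the edgeR test in any comparison. Around Pthlh these were Mansc4, Klhl42, Gm6288 and Ccdc91, of which Klhl42 lies 139.3 kb away and Ccdc91 211.6 kb away. Ccdc91 averaged 23.7 ± 0.692 CPM in Ang II_FI, 22.7 ± 2.00 CPM in Ang II and 22.5 ± 2.01 CPM in Con. Around Pth1r they were Nbeal2, Ccdc12, Myl3 and Tmie. Ccdc12, 10.5 kb away, averaged 27.8 ± 2.15 CPM in Ang II_FI, 26.6 ± 1.57 CPM in Ang II and 23.5 ± 2.60 CPM in Con, with an edgeR adjusted p of 0.132 in Ang II_FI against Con.

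The marker lists not described above were low or overlapped between groups, except the atrial one. The 5 atrial markers, which include the stress-induced Nppa, summed to 330 to 423 CPM in Ang II_FI (334 to 423 CPM without Ang II_FI_3), 277 to 348 CPM in Ang II and 97.0 to 128 CPM in Con. The list did not rise as a whole. Only 2 of its markers were tested, and in Ang II against Con 1 lay above 0 and 1 below. In Ang II_FI against Con both lay above 0. Sln and Bmp10 were at 0 in Ang II and Myl7 in Ang II_FI, and none was at 0 in Con. The 7 epicardial or mesothelial markers summed to 2.48 to 87.8 CPM in Ang II_FI (2.48 to 3.83 CPM without Ang II_FI_3), 3.03 to 5.42 CPM in Ang II and 1.35 to 4.75 CPM in Con. The 6 adipocyte markers summed to at most 0.687 CPM in Ang II_FI (0.327 CPM without Ang II_FI_3), 0.734 CPM in Ang II and 0.288 CPM in Con, and the 5 red blood cell markers to 84.4 to 209 CPM in Ang II_FI, with or without that library, 50.0 to 102 CPM in Ang II and 95.7 to 192 CPM in Con.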
